A study of Mus musculus with 6 samples.

Results

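The Notch receptors Notch1, Notch2, Notch3 and Notch4 and their canonical ligands Dll1, Dll3, Dll4, Jag1 and Jag2 were followed in mouse cortical neurospheres in which miR-335 was blocked. The members were every gene probe that the platform's annotation assigns to exactly 1 of these 9 symbols. Each gene had 1 such probe, so 9 of the 18069 genes with a probe of their own, and 9 of 34967 gene probes, are described. Neurospheres, balls of neural precursors that grow in suspension, came from C57BL/6 embryos at embryonic day 12.5 (dorsal telencephalon). The medium held EGF and bFGF, each at 20 ng/ml, as well as LIF at 0.15 ng/ml. Both groups were transfected with a 2'-O-methyl modified oligonucleotide. In 3 samples this was an antisense oligonucleotide to miR-335 (anti-miR-335), and in 3 it was a nonsense control that the labels name 2' O Me-EGFP. The duration is labelled 24 with no unit, and nothing in the labels ties a replicate to its own culture or litter, so the p-values cover only how far these 6 samples scatter, and that scatter may be technical. RNA was hybridised to single-colour CodeLink mouse arrays. How far miR-335 itself was blocked was not analysed here.

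In Notch signalling, a transmembrane ligand on a cell binds a receptor on its neighbour. The receptor is then cut by an ADAM sheddase and by gamma-secretase, and its freed intracellular part joins RBPJ and Mastermind in the nucleus to switch on Hes and Hey genes. In the embryonic cortex, cells that start to become neurons express Delta ligands, and the Notch signal they send keeps neighbouring radial glia as precursors.

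The molecule blocked is shown first, because it defines the comparison. The labels do not say which arm of the hairpin was targeted. Both mature arms lie on the forward strand of chromosome 6 (GRCm38.p6, sequences from RefSeq), and capitals mark the seed, bases 2 to 8, through which a microRNA pairs with its targets.
mmu-miR-335-5p: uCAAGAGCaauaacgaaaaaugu
mmu-miR-335-3p: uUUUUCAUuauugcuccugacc

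All levels are multiples of the median of the array they were read on. The background limit of an array, 0.492 to 0.692, was set 3 scaled median absolute deviations over the median of its negative control spots. Between 59.9% and 67.3% of gene probes passed it. Of 13 neural precursor markers, 12 were above background on all 6 arrays, among them Nes, Sox2 and Pax6. Control replicate 1 had the lowest of limma's array weights, which count noisier arrays less, at 0.366 against 0.781 to 2.25 on the other arrays. Its spike-in controls had the lowest median, 3.49 against 3.89 to 5.19 on the other arrays. By that median control replicate 2, at 5.19, lay further from its nearest array. Without control replicate 1, 3.17% of all probes passed the threshold of an adjusted p of 0.05 by limma, against 0% with it. Values without this array are given beside the results for the members above background on all 6 arrays, for Notch2 and for the pathway genes it bears on most.

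The question was whether the Notch receptors and ligands differ in RNA level when miR-335 is blocked. The Delta ligands Dll1 and Dll3 had higher values on all 3 anti-miR-335 arrays than on any control array, by 1.36-fold and 1.38-fold. Notch1 and Jag1, also above background on all 6 arrays, differed by less than the spread between replicates. Notch2 was near the background limit. Notch3, Notch4, Dll4 and Jag2 were above it on 1 array or none. By limma, 0 of the 9 passed an adjusted p of 0.05, as did 0% of all 34847 probes tested. At an unadjusted p of 0.05, 2 of the 9 were higher and 0 lower, where 4.91% of all probes were higher. Over 18010 genes with 1 probe each, 6.63% were higher and 3.32% lower. Group values did not overlap for Dll1 and Dll3, 2 of 9, where 7.46% of the 34204 probes with 6 values lay wholly higher in the anti-miR-335 group. Over genes with 1 probe each, 1712 of 18010 lay wholly higher.

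**Figure D1:**
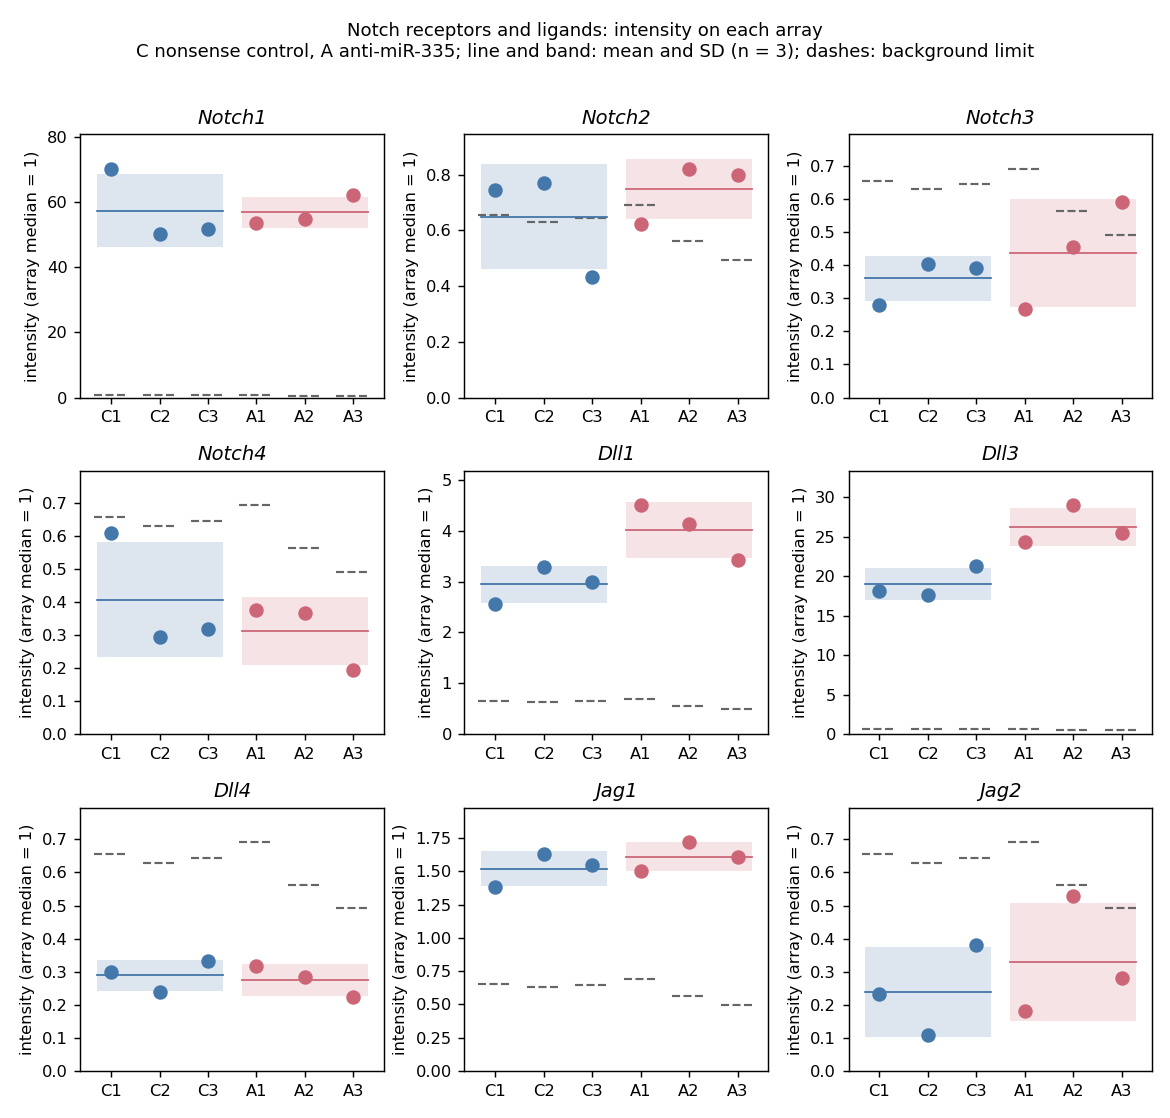
Intensity of the 9 probes (vertical axis, units of the array median, from 0) on each array (horizontal axis): C1 to C3 nonsense control, A1 to A3 anti-miR-335. Points are arrays, lines and bands the mean and SD of 3 arrays, dashes each array's background limit; Dll1 and Dll3 are the genes whose groups do not overlap, and Notch4, Dll4 and Jag2 lie under the limit on every array.

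Among the receptors, Notch1 is the main receptor of cortical radial glia. Its probe was designed to a cDNA clone that the platform's annotation assigns to Notch1 (chromosome 2, 26457902 to 26503822). It lay at 70.3, 50.2 and 51.7 on control replicates 1, 2 and 3, and at 53.6, 54.7 and 62.3 on anti-miR-335 replicates 1, 2 and 3. The highest value was on control replicate 1, and the groups overlapped. The means were 57.4 ± 11.2 (SD, n = 3) and 56.9 ± 4.74 (SD, n = 3). The log2 difference, anti-miR-335 minus control here and throughout, was 0.00 ± 0.14 (SE, limma adjusted p = 0.998). Its 95% interval, not adjusted for the number of probes, ran from 0.802-fold to 1.25-fold. Without control replicate 1 the log2 difference was 0.16 (limma adjusted p = 0.491).

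Notch2, a second receptor of neural precursors (chromosome 3, 98013538 to 98150367), lay at 0.744, 0.769 and 0.433 on the controls and at 0.623, 0.821 and 0.799 on the anti-miR-335 arrays. It was above background on 2 of 3 arrays in each group, and control replicate 3 had the lowest value. The log2 difference of 0.24 ± 0.29 (SE, limma adjusted p = 0.843) turned to -0.03 without that array and was 0.36 without control replicate 1.

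Notch3 (chromosome 17, 32120820 to 32166896), known from vascular mural cells as well as from neural precursors, was above background on 1 array, anti-miR-335 replicate 3, at 0.591. Its control values were 0.281 to 0.405, and its other anti-miR-335 values 0.268 and 0.456. Notch4 (chromosome 17, 34564286 to 34588543), a receptor of endothelial cells, was not above background on any array, with values from 0.193 to 0.608. Of the 12 endothelial markers, 3 were above background on all 6 arrays. The defining markers Pecam1 and Cdh5 were above it on none, and Kdr on 5. The mural markers Pdgfrb and Rgs5 were above it on 3 arrays and on 1.

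Dll3 is a divergent Delta ligand that acts inside the cell making it and dampens Notch signalling. The gene lies on chromosome 7, from 28293555 to 28301785. The probe read 18.1, 17.6 and 21.3 on control replicates 1, 2 and 3. On anti-miR-335 replicates 1, 2 and 3 it read 24.3, 29.0 and 25.5. The lowest anti-miR-335 value was above the highest control value, and the spread within a group was 1.21-fold in the controls and 1.19-fold in the anti-miR-335 arrays. The means were 19.0 ± 2.00 (SD, n = 3) and 26.3 ± 2.41 (SD, n = 3), a log2 difference of 0.47 ± 0.12 (SE). This did not pass the test (limma adjusted p = 0.394, unadjusted 0.00209). The unadjusted 95% interval ran from 1.16-fold to 1.65-fold, and 0.519% of all probes had a smaller p. Without control replicate 1 the log2 difference was 0.44 (limma adjusted p = 0.0689), and without replicate 1 of both groups it was 0.49 (limma adjusted p = 0.0741). In the latter fit 0 of the 9 members passed, with 4.57% of all probes called. With weights that let limma count noisier arrays less, Dll3 passed (adjusted p = 0.0421, log2 difference 0.52), as did 1.36% of all probes. Over all alternatives its adjusted p ran from 0.0421 to 0.886.

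Dll1, the Delta ligand that nascent neurons present to their neighbours, lies on chromosome 17, from 15367354 to 15376932. Its controls were at 2.56, 3.29 and 2.99, and its anti-miR-335 arrays at 4.50, 4.14 and 3.42. The groups did not overlap, but control replicate 2 and anti-miR-335 replicate 3 were close. The means were 2.95 ± 0.367 (SD, n = 3) and 4.02 ± 0.549 (SD, n = 3). The log2 difference was 0.45 ± 0.15 (SE), with an unadjusted 95% interval from 1.08-fold to 1.71-fold, and it did not pass (limma adjusted p = 0.469, unadjusted 0.0131). Without control replicate 1 it was 0.35 (limma adjusted p = 0.200), and without replicate 1 of both groups 0.26 (limma adjusted p = 0.301). Over all alternatives its adjusted p ran from 0.196 to 0.886.

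The scanner output of the replicate 1 pair gives the raw spots behind these values. The Dll3 spot had a mean of 1150 over a local background of 54.0 on the control array and 1650 over 56.0 on the anti-miR-335 array. Dll1 had 203 over 47.0 and 357 over 63.0. Both probes carried the software's good flag on both arrays. Corrected by normexp and scaled to the array median, the pair differed by 0.46 (log2) for Dll3 and 0.68 for Dll1. For Notch1 the pair differed by -0.33, with spots at 4330 over 52.0 and 3580 over 71.0. These are single arrays, with no test.

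Jag1, a Jagged ligand of neural precursors and their niche (chromosome 2, 137081451 to 137116520), read 1.38, 1.63 and 1.55 on the controls and 1.5, 1.72 and 1.61 on the anti-miR-335 arrays. The groups overlapped. The log2 difference was 0.09 ± 0.16 (SE, limma adjusted p = 0.906), and the unadjusted 95% interval ran from 0.829-fold to 1.36-fold. Without control replicate 1 the log2 difference was 0.02. Dll4, a ligand best known from endothelial tip cells (chromosome 2, 119325784 to 119335666), was not above background on any array, at 0.225 to 0.331. Jag2, the other Jagged ligand (chromosome 12, 112907803 to 112929812), was not above background either and was the most scattered between replicates of a group. Its values went from 0.108 to 0.380 in the controls and from 0.181 to 0.528 in the anti-miR-335 arrays, up to 3.52-fold within a group. Since both groups were below background for Notch4, Dll4 and Jag2, their log2 differences, shown in the plot of differences, do not measure a change in level.

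Over all 9 probes the median log2 difference was 0.23, with 7 positive, against a median of 0.05 and 10336 positive of 18010 over all genes with 1 probe each. Of the 7 positive values, those of Notch1, Notch2, Notch3 and Jag2 changed sign under at least 1 alternative setting. The median is the value of Notch3, which was above background on 1 array. The 4 members above background on all 6 arrays are Notch1 (0.00), Jag1 (0.09), Dll1 (0.45) and Dll3 (0.47).

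**Figure D2:**
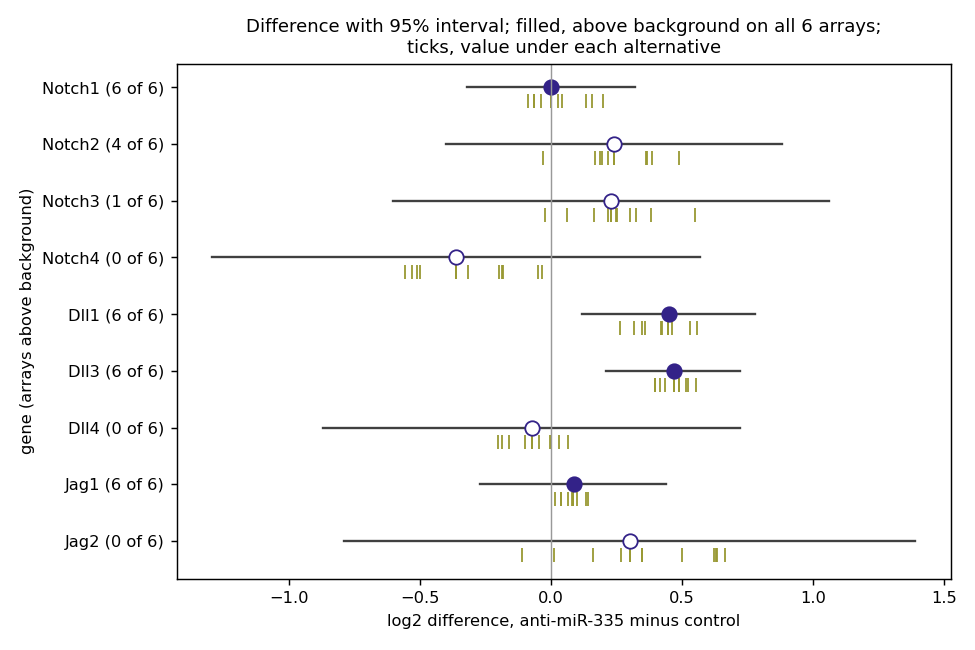
Log2 difference, anti-miR-335 minus control (horizontal axis), of the 9 genes (vertical axis, with the number of arrays above background), with unadjusted 95% intervals; filled points were above background on all 6 arrays, and ticks are the values under the alternative settings. Dll3 ranged from 0.40 to 0.55 and Dll1 from 0.26 to 0.56 over these settings, while the ticks of Notch1 fall on both sides of 0. Open points were below background on at least 2 arrays and show no measured direction.

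Promoters of Dll1 and Dll3, whose values moved the same way, are shown with the E-boxes that basic helix-loop-helix factors such as the proneural proteins recognise. The windows run from 250 bases before to 50 after the start site (RefSeq, GRCm38.p6) and are written 5′ to 3′ on the gene's own, reverse strand. Capitals mark CANNTG, a motif that reads the same on both strands. Dll1 lies at chr17:15376883-15377182 and Dll3 at chr7:28301736-28302035.
Dll1: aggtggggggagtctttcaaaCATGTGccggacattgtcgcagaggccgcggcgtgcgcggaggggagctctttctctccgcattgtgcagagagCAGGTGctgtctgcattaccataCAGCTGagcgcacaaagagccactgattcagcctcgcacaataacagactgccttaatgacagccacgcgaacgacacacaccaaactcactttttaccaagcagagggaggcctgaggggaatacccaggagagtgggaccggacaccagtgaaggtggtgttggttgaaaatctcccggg
Dll3: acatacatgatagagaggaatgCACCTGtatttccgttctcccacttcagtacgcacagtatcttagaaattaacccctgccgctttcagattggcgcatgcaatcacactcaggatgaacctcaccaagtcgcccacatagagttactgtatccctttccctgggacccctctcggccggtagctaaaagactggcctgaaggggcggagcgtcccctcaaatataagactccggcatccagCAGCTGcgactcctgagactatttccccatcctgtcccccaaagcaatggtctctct
The Dll1 window held 3 matches, which start 229, 155 and 132 bases before the start site. The Dll3 window held 2, which start 228 and 7 bases before it. Each gene had 1 match with the central letters GC (CAGCTG). E-boxes of any kind were in 72.3% of all 32851 promoter windows and CAGCTG in 16.3%, searched on both strands. Matches to CAGCTG can overlap those to CANNTG, since they are a subset. Jag1 held 1 match, also a CAGCTG, Notch4 held 1, and Notch1, Notch2, Notch3, Dll4 and Jag2 held 0. A second annotated Dll1 start had 1. The core motif of RBPJ, TGGGAA, was found in 0 windows of the 9 genes and in 25.6% of all windows. These are descriptions of letters, not of binding.

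Summed levels of some marker lists also lay apart between the groups, although 0 markers of any list passed (limma adjusted p of 0.05) with all arrays in. The summed intensity of 11 neurogenic progenitor markers was 83.3 to 94.5 in the controls and 109 to 130 in the anti-miR-335 arrays. Gadd45g made up 70.2% of this sum, and the other markers summed to 23.5 to 30.7 and 34.1 to 38.6. Neurog2, a proneural factor, was above background on 2 of 6 arrays, at 0.477 ± 0.0334 (SD, n = 3) in the controls and 0.628 ± 0.0380 (SD, n = 3) in the anti-miR-335 arrays. Eomes, of intermediate progenitors, was above background on 1 array. The 11 neuronal markers summed to 14.5 to 17.8 and 18.1 to 24.2, and the 13 precursor markers to 292 to 320 and 331 to 365, again with no overlap. The median log2 difference of the precursor markers was 0.07, beside 0.05 over all genes. Without control replicate 1, Dcx, a marker of young neurons (log2 difference 1.06, limma adjusted p = 0.0252), and Pax6 (0.43, limma adjusted p = 0.0376) were higher and passed, as did 3.17% of all probes. With all arrays in, Dcx differed by 1.02 (limma adjusted p = 0.333). Tubb3, the other defining neuronal marker, overlapped between groups (0.18, limma adjusted p = 0.791). It did not pass without control replicate 1 either (0.21, limma adjusted p = 0.595). Pax6 was highest on that array, at 18.4, and with it the groups overlapped (0.21, limma adjusted p = 0.747). The other defining precursor markers, Nes (-0.13) and Sox2 (-0.14), were lower without control replicate 1 and did not pass. The astrocyte, ventral telencephalon, endothelial and mural sums overlapped between groups. The 8 oligodendrocyte lineage markers overlapped in sum, at 19.2 to 43.1 and 26.0 to 53.6, but without Olig1 (44.3% of the sum) they lay at 16.2 to 17.3 and 22.4 to 26.8. The 8 microglial markers summed to 7.66 to 8.45 and 6.28 to 7.19. Trem2 made up 55.1% of that sum, and the other 7 overlapped, at 2.58 to 3.81 and 3.09 to 3.77. The part of these markers in the Dll1 and Dll3 values was not tested. In such bulk RNA, more cells of a type and more RNA per cell cannot be told apart.

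Of 74 further genes of the pathway, 67 were measured and 47 were above background on all 6 arrays. By limma 0 passed in either direction; at an unadjusted p of 0.05, 9 of the 67 had higher values after the block and 4 had lower ones, where 6.63% of 18010 genes were higher and 3.32% lower. Their median log2 difference was 0.11, with 47 positive, beside 0.05 over all genes. Counts and medians by role include probes below background, whose sign carries little. Named below, in each role, is the pair of smallest p above background on at least 3 arrays, and none of these passed with all arrays in. Adam10, Rbpj, Itch, Dlk1, Hes1, Hes6, Hes7, Hey2 and Heyl are named as well, singled out after their values were seen.

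On the ligand side, 5 of 8 genes of ligand endocytosis had positive differences (median 0.09), and the endocytic adaptor gene Epn1 differed by 0.16 ± 0.12 (log2, SE) and the dynamin gene Dnm1 by 0.20 ± 0.17. Of the non-canonical ligands 4 of 5 were positive (median 0.19), and the neuronal ligand gene Dner read 9.10, 8.53 and 8.5 on the controls and 10.7, 9.62 and 10.9 on the anti-miR-335 arrays, with no overlap. Egfl7, a secreted endothelial antagonist, lay at 1.01 ± 0.101 (SD, n = 3) and 0.788 ± 0.0638 (SD, n = 3). Both probes of Dlk1 were below background on every array.

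On the receptor side, 7 of 8 genes of receptor glycosylation and maturation were positive (median 0.25). Furin, the protease that cleaves Notch during its maturation, read 11.3, 9.88 and 11.7 on the controls and 8.40, 8.79 and 8.41 on the anti-miR-335 arrays. These groups did not overlap, with a log2 difference of -0.36 ± 0.10 (SE, limma adjusted p = 0.437). Rfng, a Fringe glycosyltransferase that tunes which ligands a receptor answers, differed by 0.41 ± 0.21, with control replicate 1 (4.73) among the anti-miR-335 values. Without that array Rfng rose by 0.66 (limma adjusted p = 0.0434). The sheddase genes Adam9 and Adam17 differed by 0.17 ± 0.17 and 0.16 ± 0.17, and by 0.29 and 0.32 without control replicate 1. Adam10, the other sheddase gene, differed by 0.08 on its brightest probe and by -0.07 and 0.64 on its others. Without control replicate 1 these became 0.28, 0.12 and 1.19. Only the last passed there (limma adjusted p = 0.0282), on a probe above background on 5 of 6 arrays. Of the gamma-secretase genes 3 of 5 were positive (median 0.07). The subunit gene Aph1c lay at 2.06 ± 0.140 (SD, n = 3) and 2.58 ± 0.195 (SD, n = 3). The catalytic subunit gene Psen2 differed by -0.14 ± 0.11 (log2, SE) on its brightest probe. Its other probe, also above background on all 6 arrays, differed by 0.05.

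In the nucleus, 5 of 9 genes of the activator complex were positive (median 0.07) and 8 of 10 corepressors (median 0.18). The acetyltransferase genes Kat2b and Kat2a lay in opposite directions, at -0.56 ± 0.18 and 0.28 ± 0.12 (log2, SE). The DNA-binding partner of Notch, Rbpj, lay at 5.19 ± 0.798 (SD, n = 3) in the controls and 5.44 ± 0.561 (SD, n = 3) in the anti-miR-335 arrays. The Groucho corepressor gene Tle4 read 14.2, 10.2 and 10.3 against 15.0, 14.5 and 16.4 on its brightest probe. On that probe it rose without control replicate 1 (log2 difference 0.57, limma adjusted p = 0.0200). Its other probe, also above background on all 6 arrays, overlapped between groups (0.23). Without control replicate 1 that probe did not pass (0.20, limma adjusted p = 0.583). Ctbp1, another corepressor gene, differed by 0.25 ± 0.11. Of the genes that limit or turn over the pathway 9 of 12 were positive (median 0.17). Sel1l differed by 0.35 ± 0.13 on its brightest probe and Dtx4, a Deltex ubiquitin ligase gene, by -0.32 ± 0.12. The other Sel1l probe, also above background on all 6 arrays, overlapped between groups (0.18). The ubiquitin ligase gene Itch, at 16.5 on control replicate 1 against 7.97 and 6.49 on the other controls, rose without that array on its brightest probe (log2 difference 0.67, limma adjusted p = 0.0270). With all 6 arrays the brightest Itch probe differed by 0.27 (limma adjusted p = 0.805) and its other probes by -0.25 and -0.21. Without control replicate 1 those other probes differed by -0.05 and -0.22.

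The target gene Hes5, the main Hes effector of Notch in radial glia, read 2.10, 2.89 and 2.82 on the controls and 4.52, 4.41 and 4.39 on the anti-miR-335 arrays. Its log2 difference was 0.79 ± 0.15 (SE, limma adjusted p = 0.342), and without control replicate 1 it rose by 0.64 (limma adjusted p = 0.0208). Hey1 lay at 14.4 ± 1.21 (SD, n = 3) and 17.7 ± 1.71 (SD, n = 3), with no overlap. Of the 7 Hes and Hey genes listed under targets, 3 were positive (median -0.14). Whether each of them is a Notch target in these cells was not tested. Among the other genes of that list, Hes6 (0.03) and Hes7 (-0.14) were above background on all 6 arrays, and Hes1 and Heyl on none. Hey2 was above background on 2 arrays, both controls. It lay wholly lower in the anti-miR-335 group (log2 difference -1.22, limma adjusted p = 0.449), where all its values were below background.

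**Figure D3:**
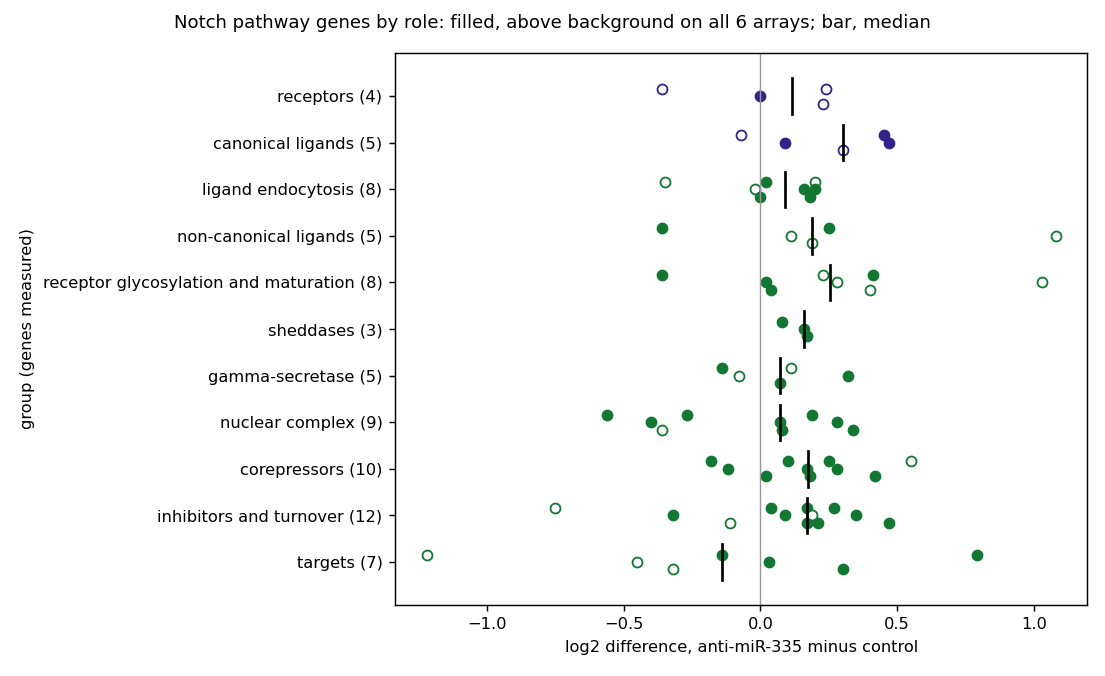
Log2 difference, anti-miR-335 minus control (horizontal axis), of the receptors, canonical ligands and 67 other pathway genes by role (vertical axis, with the number measured). Filled points were above background on all 6 arrays and bars are medians; Hes5 is the rightmost filled point, at 0.79. Medians include open points, such as Jag2, which sets the median of the canonical ligands, so they give no order of the roles.

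The probes most like each member over the 6 arrays were sought among 11481 probes of named genes that were above background on all arrays. Likeness is Pearson's r of log2 intensity, n = 6 arrays, given as a description. All values share the same arrays and their scaling. Dll3 was most like Borcs7 (r = 0.992), of a lysosome-positioning complex, and Fahd1 (r = 0.992), a mitochondrial enzyme gene, and 87 probes reached an r of 0.95. Dll1 was most like Sox30 (r = 0.988) and Mbtps1 (r = 0.984), a protease gene of the Golgi, and 13 probes reached that value. Notch1 was most like Usp31 (r = 0.994) and Zfp830 (r = 0.993), both also highest on control replicate 1, and Jag1 like Unc5b (r = 0.991) and Olfr651 (r = 0.990).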

How the data were processed

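Deposited values are linear intensities that the authors scaled to the array median, per the labels' protocols; the software was CodeLink Expression Analysis 4.1.0.29054, per the file headers. Background subtraction was read from the scanner values. Scanner output of replicate 1 of each group was used; its 35976 and 36032 comparable values matched the deposited ones within 0.0001. For arrays, their number limits the precision, here 3 per group.

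Of 34967 gene probes, 21615 have 1 symbol, 681 several and 12671 none in the platform's annotation, updated through RefSeq gene identifiers (GRCm38.p6). Values below the 5th percentile of positive intensities, 0.163, were set to that floor before log2 transformation. The main test was limma's (version 3.58.1, R 4.3.3; lmFit and eBayes with trend), unpaired and two-sided, with Benjamini-Hochberg adjustment over 34847 probes with at least 2 values per group. The script was tested on simulated data. The brightest probe stood for a pathway gene.

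All members are named. Pathway genes are named where they passed, otherwise as the 2 of smallest p per role above background on 3 or more arrays; the 2 most correlated probes are named per member above background on all arrays. Adam10, Rbpj, Itch, Dlk1, Hes1, Hes6, Hes7, Hey2, Heyl, Dcx, Tubb3 and Pax6, and the calls without control replicate 1, were singled out after their values were seen. Members and lists were chosen with earlier results of these data known. Alternatives were quantile normalization, other floors, a dim-probe filter, no trend, array weights, a replicate block and leaving out arrays.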

Additional observations from a re-analysis of the deposited data

How the results depend on the processing

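With 3 arrays per group, the number of arrays and the signal over background limit what can be seen, and for Notch3, Notch4, Dll4 and Jag2 the signal does not allow a direction. The count of all probes past the threshold was 0 in the main comparison, 1 after quantile normalization, 474 with array weights and 0 to 1571 when arrays were left out (1100 without control replicate 1, 1571 without replicate 1 of both groups, 1 where anti-miR-335 replicate 1 was dropped, 0 in the other cases). Of the 9 members 1, Dll3, passed with array weights and 0 under every other setting run. Of the other pathway genes, each on its brightest probe, 2 passed with array weights (Hes5 and Tle4). When arrays were left out, 0 to 5 passed (4 without control replicate 1, 5 without replicate 1 of both groups). The members' median log2 difference ranged from 0.04 (without anti-miR-335 replicate 2) to 0.36 over the arrays left out, and that of the other pathway genes from 0.06 (without control replicate 2) to 0.19. Dll1, Dll3 and Jag1 stayed positive under all settings run. Notch1 was at -0.036 after quantile normalization and from -0.086 to 0.198 over the arrays left out, and Dll4 at 0.001 and from -0.203 to 0.066. Over the same leave-outs Notch2 ranged from -0.029 to 0.487, Notch3 from -0.023 to 0.549 and Jag2 from -0.109 to 0.665. The cause was not tested. With the dim-probe filter, Notch3, Notch4, Dll4 and Jag2 were left out and have no value.

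With the replicate number as a replicate block, 0 probes passed and the members' median was 0.23. Deviations of same-numbered arrays correlated at -0.23, 0.04 and -0.26 over 17843 probes. No array correlated best with its own number. With so few arrays per group, these correlations cannot show whether same-numbered arrays shared a culture or were processed together. That was not tested, and the arrays were left unpaired in the main test.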
